A study of Mus musculus with 18 samples.

Results

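Genes of the pre-mRNA splicing regulators were examined in the external granule cell layer (EGL) of newborn Ts1Cje and euploid mice. The genes were chosen by name from the annotation of the array: those called Srsf (formerly Sfrs) or Hnrnp (formerly Hnrp), together with Son, Tra2a, Tra2b, U2af1, U2af2, Ptbp1 and Ptbp2. They numbered 35 genes with 95 probes, of 17711 named genes with 29976 probes. A probe was tested when its mean log2 signal was among the highest of the array, which for the dimmest probe tested meant a mean of 7.14. By this filter 26 of the 35 genes and 48 of their 95 probes were tested, and 9 genes had only dimmer probes. Son is the three-copy member of the set in Ts1Cje mice.

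The layer came from newborn (P0) pups, 9 Ts1Cje and 9 euploid, of the stock B6EiC3SnF1/J A/a, and the RNA of each mouse was hybridized to 1 Illumina bead array. Ts1Cje mice carry an extra copy of a distal segment of mouse chromosome 16 (Mmu16). They also lack a copy of a small part of another chromosome, which the study describes. The mice came from 3 litters, each with 3 Ts1Cje and 3 euploid mice. Every litter had a slide of its own, and the effects of the litter and of its slide cannot be told apart. The source label of 2 euploid arrays of litter 2 reads cerebellum, while their tissue field gives the dissected layer. Signals are log2 values, a difference of 1 on this scale being a ratio of 2, and they are comparable between mice for 1 probe but not between probes. Among the markers of granule cell precursors, Zic1, Zic2, Ccnd1, Ccnd2, Barhl1 and Top2a were tested, whereas the probes of Atoh1, Gli1 and Mycn were below the tested range, with means of 5.69, 5.40 and 5.52.

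SR proteins bind exonic sequences through RNA recognition motifs and recruit the splicing machinery through domains rich in arginine and serine, and many hnRNP proteins oppose them. U2af1 and U2af2 form the factor that recognizes the 3′ splice site, and Tra2a and Tra2b are SR-like activators. SON is a large scaffold protein of nuclear speckles, the bodies in which splicing factors gather, and in human cells it is needed for the splicing of transcripts with weak splice sites, among them genes of the cell cycle. Ptbp1 and Ptbp2 encode polypyrimidine tract binding proteins. Ptbp1 is made by neural precursors and represses neuronal exons, including one that Ptbp2 needs, and Ptbp2 takes its place as neurons differentiate.

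The sequences before the start sites of Son, Ptbp1 and Ptbp2 are shown because Son is the three-copy gene and because the paralogs Ptbp1 and Ptbp2 had litter differences of opposite sign. They are the 250 bases upstream of the start that the RefSeq promoter table lists on GRCm38.p6, at chr16:91647574-91647823 (plus strand) for Son, chr10:79854182-79854431 (plus strand) for Ptbp1 and chr3:119783389-119783638 (minus strand) for Ptbp2. The stretches of Son and Ptbp1 border the gene, while that of Ptbp2 lies inside the interval RefSeq gives the gene, chr3:119718741-119784647, and so does not precede its outermost start. Capitals mark matches, on either strand, to 4 short motifs: CCAAT (the CCAAT box), TATAAA (the TATA box), GGGCGG (the GC box) and GATGGCG (letters held by the YY1 motif). Overlapping matches were counted.
Son: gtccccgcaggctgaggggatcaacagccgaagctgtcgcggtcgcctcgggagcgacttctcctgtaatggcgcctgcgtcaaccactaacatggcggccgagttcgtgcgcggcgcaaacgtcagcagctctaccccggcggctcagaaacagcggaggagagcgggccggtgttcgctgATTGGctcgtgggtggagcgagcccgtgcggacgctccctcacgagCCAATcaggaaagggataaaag
Ptbp1: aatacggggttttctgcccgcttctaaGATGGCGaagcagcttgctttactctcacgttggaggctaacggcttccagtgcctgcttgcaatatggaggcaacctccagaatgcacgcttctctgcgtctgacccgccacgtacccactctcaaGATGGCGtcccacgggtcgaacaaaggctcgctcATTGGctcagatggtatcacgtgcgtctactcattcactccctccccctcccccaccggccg
Ptbp2: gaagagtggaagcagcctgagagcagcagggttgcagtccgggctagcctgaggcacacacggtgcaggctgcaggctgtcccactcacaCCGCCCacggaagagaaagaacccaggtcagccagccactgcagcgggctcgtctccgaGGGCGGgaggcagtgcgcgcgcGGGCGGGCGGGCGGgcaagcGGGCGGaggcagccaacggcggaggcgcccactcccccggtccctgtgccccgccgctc

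Son held 2 matches to CCAAT and none to the other motifs as written. Ptbp1 held 1 to CCAAT and 2 to GATGGCG, and Ptbp2 held 6 to GGGCGG. The search for GATGGCG kept its first base fixed. The stretch of Son holds the remaining letters of GATGGCG after other first bases, and these were not counted. The counts of GATGGCG therefore do not tell which promoters hold or lack the YY1 motif. A promoter was found in the RefSeq table for 32 of the 35 genes. Of these, 19 (59.4%) held CCAAT, against 34.5% of the 27025 promoters of all genes, and 24 (75.0%) held GGGCGG, against 32.9%. TATAAA was found in 3 (9.38%), against 13.0% of all promoters, and GATGGCG in 3 (9.38%), against 2.25%. The 3 genes with GATGGCG were Ptbp1, Hnrnpk and Srsf10. The promoters of all genes include those of predicted genes, and a match describes letters only.

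Son lies at chr16:91647824-91679192 in GRCm38.p6. Its tested probe had a higher signal in Ts1Cje than in euploid mice in each litter. In litter 1 the log2 signal of Son was 7.79, 8.27 and 7.84 in Ts1Cje mice, against 7.79, 7.38 and 7.83 in euploid mice. In litter 2 it was 8.54, 8.33 and 8.70 in Ts1Cje mice, against 7.47, 7.86 and 7.29 in euploid mice. In litter 3 it was 8.01, 8.39 and 8.18 in Ts1Cje mice, against 7.62, 7.54 and 8.17 in euploid mice. Only in litter 2 were all Ts1Cje mice higher than all their euploid littermates. Over the litters, 6 of the 9 Ts1Cje values exceeded the highest euploid value. The mean was 8.23 ± 0.31 in Ts1Cje and 7.66 ± 0.28 in euploid mice (SD, n = 9 each). The log2 fold change of Son was thus 0.57, with a standard error (SE) of 0.13, a ratio of 1.48, with a 95% confidence interval of 1.23 to 1.78. The exact permutation test over all 48620 ways of choosing 9 of the 18 mice gave p = 0.00123 (two-sided, smallest possible p 4.11e-05). Over all probes tested, limma gave an adjusted p of 0.0602 without litter and 0.0403 with litter as a block, so that the call at a threshold of 0.05 depended on the block. By the methods' t-test on signals before log2, the adjusted p of Son was 0.251.

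The log2 fold change of Son was 0.30 in litter 1, 0.98 in litter 2 and 0.42 in litter 3, or ratios of 1.23, 1.98 and 1.33. These values were not shown to differ, since the limma test of genotype by litter had an adjusted p of 0.621 (0.0437 before adjustment). Without litter 2, the log2 fold change of Son was 0.36 (adjusted p = 0.949). Without the 2 euploid arrays labelled cerebellum, both in litter 2, it was 0.54 (adjusted p = 0.179). Son passed the threshold when Ts1Cje mouse 1 of litter 1 (adjusted p = 0.0261), Ts1Cje mouse 3 of litter 1 (0.0334) or euploid mouse 9 of litter 3 (0.0181) was left out. The other 2 probes of Son were dim, with mean log2 signals of 5.71 and 5.62. Their log2 fold changes were -0.01 and -0.04, with an SE of 0.07 for each, so the difference of Son rests on 1 probe.

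**Figure D1:**
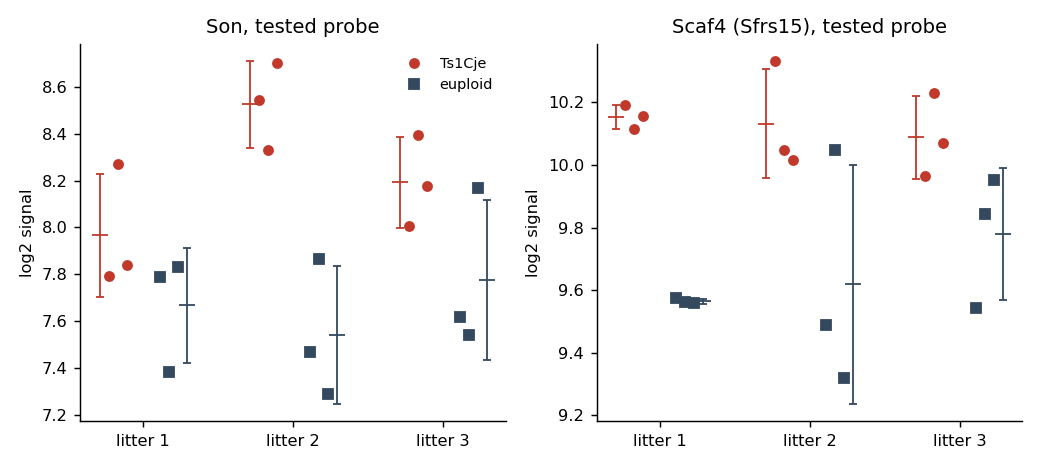
Log2 signal of the tested probes of Son and Scaf4 in each mouse, by litter, with Ts1Cje mice as circles and euploid mice as squares, and the mean ± SD of 3 mice beside each group. The Son points of the genotypes overlap in litter 1 and are farthest apart in litter 2, while the Scaf4 points do not overlap in litters 1 and 3.

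Scaf4 is the present name of Sfrs15, which the study lists as a three-copy gene. It encodes an SR-like protein that binds the C-terminal domain of RNA polymerase II. Under its present name it is no member of the set and is not counted with it. Scaf4 lies at chr16:90228950-90286140. In litter 1 its log2 signal was 10.19, 10.11 and 10.16 in Ts1Cje mice, against 9.57, 9.56 and 9.56 in euploid mice. In litter 2 it was 10.33, 10.05 and 10.02 in Ts1Cje mice, against 9.49, 10.05 and 9.32 in euploid mice. In litter 3 it was 9.96, 10.23 and 10.07 in Ts1Cje mice, against 9.54, 9.84 and 9.95 in euploid mice. Only the highest euploid mouse of litter 2, one of those labelled cerebellum, reached the level of its Ts1Cje littermates. Scaf4 passed the limma test with an adjusted p of 0.0108, at a log2 fold change of 0.47 and an SE of 0.09. This is a ratio of 1.39 with a 95% confidence interval of 1.22 to 1.57. The exact permutation test gave p = 0.000206 (two-sided). Scaf4 did not pass when litter 1 (adjusted p = 0.696), litter 2 (0.117) or litter 3 (0.0669) was left out. In the litters, its log2 fold changes were 0.59, 0.51 and 0.31. A second, dim probe of Scaf4, at a mean log2 signal of 5.94, differed by 0.12 (SE 0.04).

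Between Ts1Cje and euploid mice, 0 of the 26 members tested had an adjusted p under 0.05 in limma, where 0.350% of the 7142 genes tested passed. At an unadjusted p under 0.05, 1 member passed, Son, or 3.85% of the members, against 3.91% of all genes. With litter as a block, Son was the 1 member that passed after adjustment (3.85% of the members, background 0.616%), and 2 members, Son and Ptbp1, had an unadjusted p under 0.05 (7.69%, background 6.65%). The methods' t-test on signals before log2 gave 0 members after adjustment (background 0.322%) and 1 without (background 3.92%). Over the 25 two-copy members the median of the log2 fold changes was -0.01, and over all genes tested it was -0.00051. Of the 25, 12 had a positive and 13 a negative log2 fold change, between -0.07 (Srsf10) and 0.26 (Hnrnpa2b1). For 23 of them the 95% confidence interval of the ratio lay within a factor of 1.5 either way, and the exceptions were Hnrnpk and Hnrnpa2b1. In these dissected layers, fewer cells of a type and less RNA per cell cannot be told apart.

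**Figure D2:**
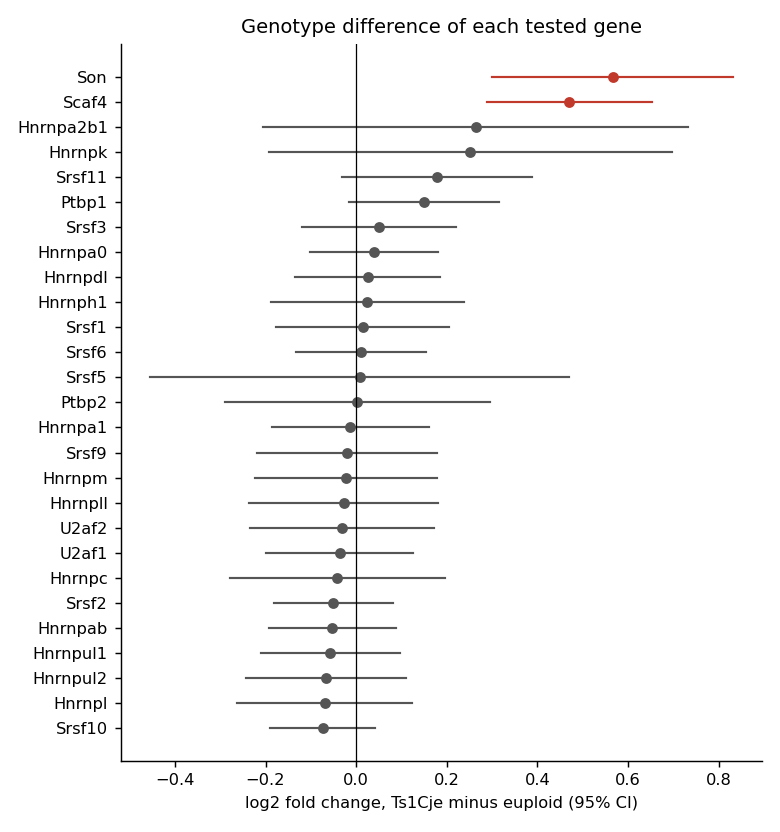
Log2 fold change (Ts1Cje minus euploid) of the 26 member genes tested and of Scaf4, with 95% confidence intervals from limma and genes ordered by their value. Son and Scaf4, in red, lie to the right of every other gene, and the interval of every other gene includes 0.

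Markers of other cell types varied beside these values. Without the block 0 of them passed limma between genotypes, where 0.350% of all genes did. With it, 1 endothelial and 1 astroglial marker passed (background 0.616%). Without the block, 3.91% of all genes tested had an unadjusted p under 0.05. The 7 endothelial markers tested had log2 fold changes with a median of 0.32 (1 at an unadjusted p under 0.05). Their signals were summed before log2, and the log2 of the sum spanned 11.80 to 13.15 over Ts1Cje and 11.73 to 12.65 over euploid mice. The brightest markers weigh most in such sums, as does Slc1a3 among the astroglial ones, at a mean log2 signal of 13.70. Of the 4 meningeal markers tested, 3 had an unadjusted p under 0.05 and the other, Igfbp2, had a log2 fold change of -0.12. Their median was 1.05, with sums of 10.85 to 13.48 in Ts1Cje and 10.37 to 12.36 in euploid mice. For the 6 astroglial markers tested it was 0.18 (1 at an unadjusted p under 0.05), with sums of 13.82 to 14.30 in Ts1Cje and 13.82 to 14.25 in euploid mice. For the 5 oligodendrocyte markers tested it was 0.12 (2 at an unadjusted p under 0.05), with sums of 11.47 to 12.23 in Ts1Cje and 11.10 to 11.92 in euploid mice. These 2 were Sox10 (0.35) and Olig1 (0.46), and Olig1, the brightest of the 5, is itself on Mmu16 between Scaf4 and Son, so that copies of the gene and cells of this type cannot be told apart there. For the 3 erythroid, 3 Purkinje, 6 granule cell precursor and 5 postmitotic granule cell markers tested, the medians were 0.22, 0.03, 0.05 and -0.02. Of these markers, 0 had an unadjusted p under 0.05. The part of these cell types in the values of the splicing genes was not tested.

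Among the SR proteins tested, each by its brightest tested probe, Srsf11 had the smallest p in the genotype test. It is an arginine- and serine-rich protein linked to splicing of neuronal microexons. Srsf11 had a lowest, median and highest log2 signal of 9.23, 9.30 and 9.81 in Ts1Cje mice, against 8.87, 9.35 and 9.52 in euploid mice. Its log2 fold change was 0.18 (SE 0.10, unadjusted p = 0.0926, adjusted p = 0.998), and 3 Ts1Cje mice lay above every euploid mouse. Srsf10, which represses splicing when it is dephosphorylated, had 7.48, 7.72 and 7.82 in Ts1Cje mice, against 7.68, 7.80 and 7.92 in euploid mice. Its log2 fold change was -0.07 (SE 0.06, adjusted p = 0.998), and 2 Ts1Cje mice lay below every euploid mouse. Another tested probe of Srsf10 went the other way, at 0.20. The unadjusted p of that probe from limma was 0.0743 without and 0.0293 with litter as a block (adjusted p 0.998 and 0.607). Srsf2, a nuclear speckle protein that defines exons, had 12.64, 12.76 and 12.89 in Ts1Cje mice, against 12.61, 12.78 and 13.07 in euploid mice. The range of Srsf2 in Ts1Cje mice lay inside that in euploid mice, with a log2 fold change of -0.05 (SE 0.06). The other SR genes tested, Srsf1, Srsf3, Srsf5, Srsf6 and Srsf9, had log2 fold changes between -0.02 (Srsf9) and 0.05 (Srsf3).

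Among the hnRNP genes tested, Hnrnpk and Hnrnpa2b1 had the largest log2 fold changes and the widest spread. Hnrnpk encodes a protein that binds RNA rich in C, and Hnrnpa2b1 one that also sorts RNAs for transport. Hnrnpk had a lowest, median and highest log2 signal of 9.13, 10.15 and 11.02 in Ts1Cje mice, against 9.15, 9.86 and 10.58 in euploid mice. Hnrnpa2b1 had 9.83, 11.03 and 11.79 in Ts1Cje mice, against 9.93, 10.64 and 11.55 in euploid mice. For both genes the lowest and the highest of the 18 values belonged to Ts1Cje mice. The log2 fold change was 0.25 for Hnrnpk (SE 0.21) and 0.26 for Hnrnpa2b1 (SE 0.23), with an adjusted p of 0.998 for each. Hnrnpab, which binds A- and U-rich RNA, had 13.38, 13.56 and 13.70 in Ts1Cje mice, against 13.42, 13.56 and 13.87 in euploid mice, a log2 fold change of -0.05 (SE 0.07). Hnrnpul2 had 8.71, 9.01 and 9.29 in Ts1Cje mice, against 8.83, 9.06 and 9.44 in euploid mice, a log2 fold change of -0.07 (SE 0.09). The genotypes overlapped over most of their range for each of these genes.

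Ptbp1 was the two-copy member with the smallest p in the genotype test. In litter 1 its brightest probe gave 11.22, 11.27 and 11.26 in Ts1Cje mice, against 11.16, 11.16 and 10.99 in euploid mice. In litter 2 it gave 11.37, 11.38 and 11.30 in Ts1Cje mice, against 11.21, 11.05 and 11.23 in euploid mice. In litter 3 it gave 11.54, 11.63 and 11.46 in Ts1Cje mice, against 11.23, 11.49 and 11.58 in euploid mice. In litters 1 and 2 every Ts1Cje mouse lay above every euploid littermate, and in litter 3 the genotypes overlapped. The log2 fold change of this probe was 0.15 (SE 0.08), a ratio of 1.11 with a 95% confidence interval of 0.988 to 1.24. The unadjusted p from limma was 0.0756 without and 0.0129 with litter as a block, and the adjusted p was 0.998 without and 0.429 with it. All 7 tested probes of Ptbp1 had a positive log2 fold change, between 0.07 and 0.30. Of these, 2 had an unadjusted p under 0.05 without the block and 5 with it. The probes measured the same RNA of the same mice and are not replicates of each other. By its brightest probe, Ptbp2 differed between genotypes by 0.0030 on the log2 scale (SE 0.14), and by the other one tested by 0.15 (SE 0.17).

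The 9 members not tested were Hnrnpa3, Hnrnpd, Hnrnpf, Hnrnph2, Hnrnpr, Hnrnpu, Srsf12, Tra2a and Tra2b. Their brightest probes had mean log2 signals between 5.44 and 7.09 and log2 fold changes between -0.06 and 0.26. The highest of these, chosen after its value was seen, was that of Hnrnpa3 (SE 0.10), at a mean log2 signal of 6.06. In litters 1, 2 and 3 the log2 fold change of Hnrnpa3 was 0.26, 0.31 and 0.20. Tra2b, at chr16:22244552-22266005, lies on Mmu16 outside the three-copy segment, and its log2 fold change was 0.03 (SE 0.05) at a mean log2 signal of 6.09. For genes that are this dim, a change in expression may not be visible.

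Differences among litters were found for more members than differences between genotypes. By the F test of limma with genotype in the fit, 10 of the 26 members tested (38.5%) passed an adjusted p of 0.05, against 25.7% of all genes tested. At an unadjusted p under 0.05, 12 members (46.2%) passed, against 39.8% of all genes. Of the 10 members, 9 were higher in litter 3 than in litter 1 (34.6% of the members, background 17.4%) and 1, Ptbp2, was lower (3.85%, background 8.27%). The median difference between litter 3 and litter 1 was 0.18 over the 26 members and 0.04 over all genes tested. Between litter 2 and litter 1, these medians were -0.04 and -0.05. Without euploid mouse 7 of litter 3, 6 members passed: Hnrnpc, Hnrnpm, Ptbp1, Ptbp2, Srsf9 and U2af2.

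**Figure D3:**
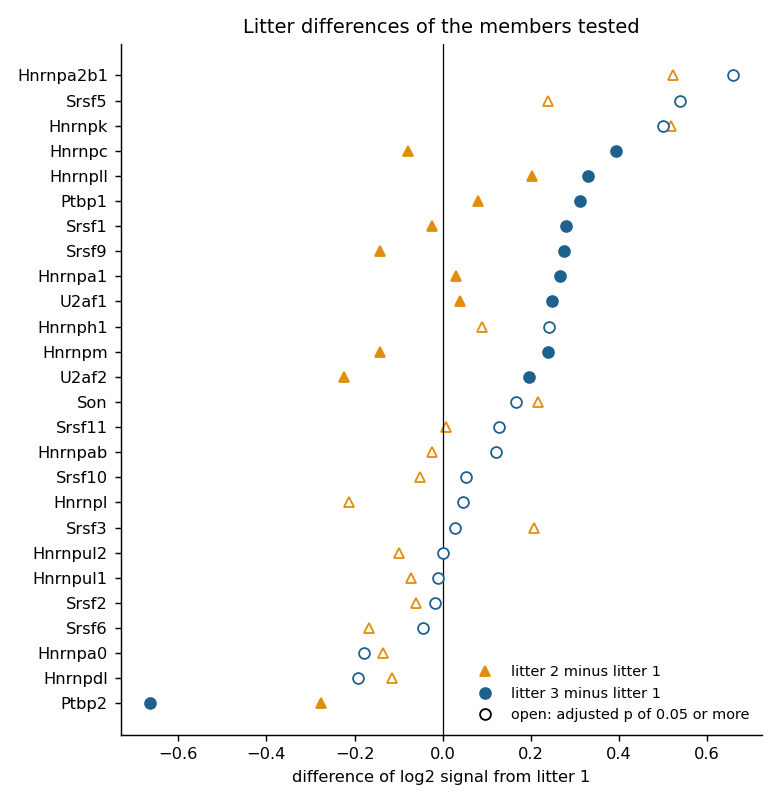
Difference in log2 signal from litter 1 for each of the 26 member genes tested, litter 2 as triangles and litter 3 as circles, with filled symbols for genes that passed the F test of litter at an adjusted p under 0.05. Ptbp2 stands alone at the low end, at -0.66 for litter 3, and the other filled circles lie between 0.20 and 0.39.

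Ptbp2 had the smallest p among litters. In litter 3 its brightest probe had a lowest, median and highest log2 signal of 9.51, 9.76 and 9.96, against 10.04, 10.08 and 10.44 in litter 2 and 10.29, 10.42 and 10.59 in litter 1. All 6 mice of litter 3 lay below each mouse of the other litters. The difference between litter 3 and litter 1 was -0.66 (SE 0.09, adjusted p = 0.000189 from limma), and that between litter 2 and litter 1 was -0.28. The second tested probe of Ptbp2, designed to a cDNA clone, gave -0.79 (SE 0.11) for litter 3 and -0.42 for litter 2. Ptbp1 moved the other way. Its brightest probe had 11.23, 11.51 and 11.63 in litter 3, against 11.05, 11.27 and 11.38 in litter 2 and 10.99, 11.19 and 11.27 in litter 1. The difference of Ptbp1 between litter 3 and litter 1 was 0.31 (SE 0.07, adjusted p = 0.0053), and over its 7 tested probes it lay between 0.17 and 0.55. The F test passed for 5 of these 7 probes.

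**Figure D4:**
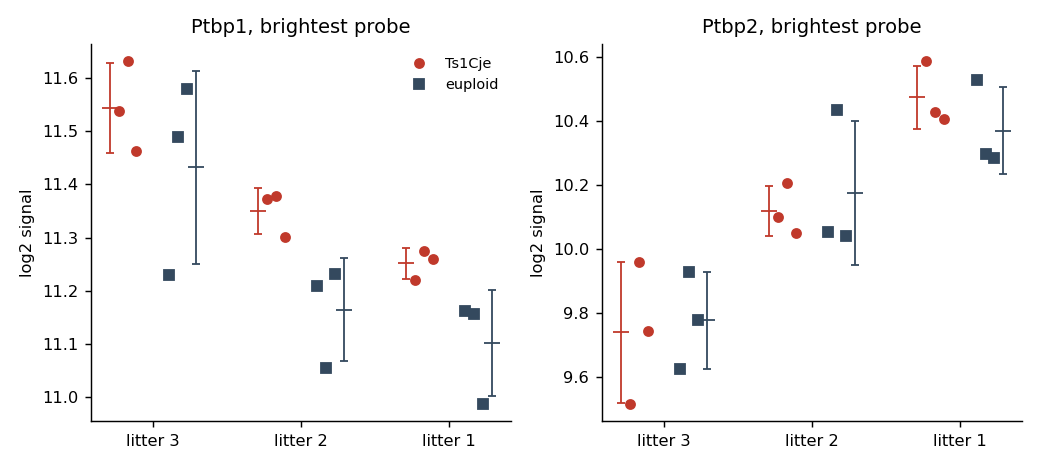
Log2 signal of the brightest probes of Ptbp1 and Ptbp2 in each mouse, by litter, with Ts1Cje mice as circles, euploid mice as squares and the mean ± SD of 3 mice beside each group. Ptbp1 is highest in litter 3 and Ptbp2 is lowest there, with all 6 mice of litter 3 under each mouse of the other litters for Ptbp2.

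The members that were higher in litter 3 included both subunits of the U2 auxiliary factor, hnRNP proteins and SR proteins. Hnrnpc, which binds stretches of U in nascent transcripts, had 13.05, 13.18 and 13.27 in litter 3, against 12.56, 12.68 and 12.86 in litter 2 and 12.54, 12.76 and 13.04 in litter 1. By this brightest probe of Hnrnpc every mouse of litter 3 lay above every other mouse. The difference from litter 1 was 0.39 (SE 0.09, adjusted p = 0.00124). All 3 tested probes of Hnrnpc passed, with differences of 0.30 to 0.39. By the dimmest of them, however, euploid mouse 7 of litter 3 lay at 10.98, below mice of the other litters. Srsf9 had 11.36, 11.50 and 11.57 in litter 3, against 10.97, 11.04 and 11.22 in litter 2 and 10.98, 11.20 and 11.35 in litter 1. The mice of litter 3 lay above all others for Srsf9, with a difference from litter 1 of 0.27 (SE 0.07). U2af2 had 9.14, 9.19 and 9.32 in litter 3, against 8.70, 8.79 and 8.94 in litter 2 and 8.70, 9.08 and 9.17 in litter 1. Its difference from litter 1 was 0.20 for litter 3 and -0.22 for litter 2 (SE 0.08 each). Without Ts1Cje mouse 1 of litter 1, the difference of U2af2 for litter 3 was 0.13, and it still passed. Hnrnpm had 12.18, 12.32 and 12.52 in litter 3, against 11.77, 11.87 and 12.16 in litter 2 and 11.96, 12.05 and 12.30 in litter 1. Srsf1, the prototype SR protein, had 11.99, 12.10 and 12.32 in litter 3, against 11.61, 11.77 and 12.09 in litter 2 and 11.65, 11.87 and 11.97 in litter 1. Hnrnpa1, its classical antagonist in the choice of splice sites, had 11.14, 11.25 and 11.51 in litter 3, against 10.86, 11.09 and 11.24 in litter 2 and 10.89, 11.05 and 11.13 in litter 1. The differences from litter 1 were 0.24, 0.28 and 0.27 for Hnrnpm, Srsf1 and Hnrnpa1 (adjusted p = 0.0069, 0.0191 and 0.0295 from limma). U2af1 and Hnrnpll also passed, with differences of 0.25 and 0.33 (adjusted p = 0.0346 and 0.0471). Son did not pass the test among litters (adjusted p = 0.458).

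Markers of cell types were also put through the F test of litter. Over all genes tested, 25.7% passed it, 17.4% being higher and 8.27% lower in litter 3 than in litter 1. Markers of granule cell precursors passed for 4 of 6 tested. Top2a (0.48), Ccnd2 (0.37) and Ccnd1 (0.35) were higher and Barhl1 (-0.24) was lower in litter 3 than in litter 1. The signals of the 6 were summed before log2, the brightest weighing most. The log2 of this sum was 14.44 to 14.67 in litter 3, 14.19 to 14.61 in litter 2 and 14.27 to 14.37 in litter 1. Of 5 markers of postmitotic granule cells tested, 1 passed, Dcx (-0.26), and their sums were 13.61 to 13.98 in litter 3, against 13.42 to 13.94 in litter 2 and 13.79 to 13.98 in litter 1. All 7 endothelial markers tested passed and were higher in litter 3, with a median difference of 0.68 and sums of 12.22 to 13.15 in litter 3, against 11.73 to 12.27 in litter 2 and 11.80 to 12.42 in litter 1. Of 6 astroglial markers tested, 4 passed, with sums of 14.08 to 14.30 in litter 3, against 13.82 to 14.15 in litter 2 and 13.82 to 13.97 in litter 1. Of 4 meningeal markers tested, 2 passed, with sums of 10.49 to 13.48 in litter 3, against 10.37 to 12.31 in litter 2 and 10.85 to 12.16 in litter 1. No marker of erythroid or Purkinje cells passed, of 3 tested each, and 1 of 5 oligodendrocyte markers did. The part of these cell types, and of the slide, in the litter differences of the splicing genes was not tested.

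Probes of 1 gene could be compared for the 12 members with 2 or more tested probes. They agreed closely for Hnrnpk, whose 3 tested probes correlated at 0.987 to 0.992 over the 18 mice and whose differences between litter 3 and litter 1 were 0.46 to 0.80, and for Hnrnph1, with 0.860 to 0.981 over the 6 pairs of its 4 probes. They disagreed for Srsf11, Srsf6 and Hnrnpab, where the 2 tested probes correlated at -0.229, -0.358 and -0.229. These correlations describe probes of the same RNA, which share the litter differences. The brighter probe of Srsf11 had 9.25, 9.38 and 9.66 in litter 3, against 8.87, 9.29 and 9.81 in litter 2 and 8.99, 9.32 and 9.44 in litter 1, and it did not pass the test among litters (adjusted p = 0.611). The dimmer probe had 7.29, 7.50 and 7.79 in litter 3, against 7.84, 8.13 and 8.51 in litter 2 and 7.88, 8.37 and 8.49 in litter 1. By this probe every mouse of litter 3 was lower than all others, with a difference from litter 1 of -0.77 (SE 0.13, adjusted p = 0.000554). Both probes of Srsf11 were designed to cDNA clones. For Srsf6, the probe designed to a RefSeq mRNA differed by -0.04 between litter 3 and litter 1, and the probe designed to a cDNA clone by 0.61 (SE 0.28). The log2 fold changes (Ts1Cje minus euploid) differed most for Srsf10, from -0.07 to 0.20 over 3 tested probes, and for Ptbp1, over the range given above. They were -0.05 and 0.12 for the 2 tested probes of Hnrnpab, and 0.02 to 0.18 for the 4 of Hnrnph1.

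The spread between mice of the same litter and genotype differed between members. The SD within these groups of 3 had a median of 0.15 over all probes tested, and the central 80% lay between 0.11 and 0.26. Srsf9 was among the least variable, with 0.08 (percentile 0.814 of all probes tested), and Srsf10 was similar. Srsf5 had 0.48 (percentile 98.3), Hnrnpk 0.42 (percentile 97.5) and Hnrnpa2b1 0.41 (percentile 97.3). Son had 0.26 (percentile 89.6). The interval given above for Son came from the fit without litter, so its width also holds differences among litters. In all, 3 of the 26 members lay above the 90th percentile, where 8.30% of all genes tested lay.

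Several members varied together with Son between mice of the same litter and genotype, a pattern chosen after its values were seen. Not all of them were among the most variable, since Hnrnpul1 and Hnrnpc lay at percentiles 36.8 and 28.3 of the spread. The deviation of each mouse from the mean of its litter and genotype correlated between Son and Hnrnpk at r = 0.955 (Spearman's rho 0.961) over 18 mice. The exact permutation test, which exchanged mice only within a litter and genotype in all 46656 ways, gave p = 2.14e-05, the smallest it can give (adjusted p = 0.000386 over 27 relations, for r and for rho). Without the 2 mice farthest from the median of Son, r was 0.950. Within Ts1Cje mice r was 0.955, within euploid mice 0.961, and it was 0.957, 0.972 and 0.989 in litters 1, 2 and 3, 0.939 after quantile normalization and 0.948 without the 2 arrays labelled cerebellum. Hnrnpa2b1 followed Son at r = 0.947 (rho 0.940), Hnrnph1 at 0.879 (rho 0.922) and Hnrnpul1 at 0.859 (rho 0.897), with adjusted p of 0.000386, 0.000868 and 0.000386 from the same exact permutation test. Srsf5, Srsf11 and Hnrnpc followed at 0.723, 0.707 and 0.703 (rho 0.728, 0.736 and 0.761), with adjusted permutation p of 0.0258, 0.0219 and 0.0270. The brightest probe of Ptbp1 did not follow Son (r = 0.0342, rho -0.0795, unadjusted permutation p = 0.933 for r). This holds for that probe only. The 7 tested probes of Ptbp1 correlated with each other within these groups at 0.0384 to 0.923, and the others were not tested against Son. The r of Scaf4, also a three-copy gene, was 0.558 (rho 0.432, adjusted permutation p = 0.171 and 0.260). Of the 7141 other genes tested, 47 (0.658%) had an r of 0.9 or more with Son, among them 2 of the 25 other members, and the median r was 0.315. The genes most like Son by this measure over the 18 mice were Trim35, Exoc4, Rbbp7 and Mapk1ip1l, with r of 0.963, 0.962, 0.960 and 0.958. The SD of all log2 signals of an array, 1.46 to 1.63 over the arrays, correlated with Son at 0.648 (adjusted p = 0.0623, rho 0.670 with adjusted p = 0.0386), and at 0.501 without the 2 mice farthest from the median. Its part in this pattern was not tested.

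**Figure D5:**
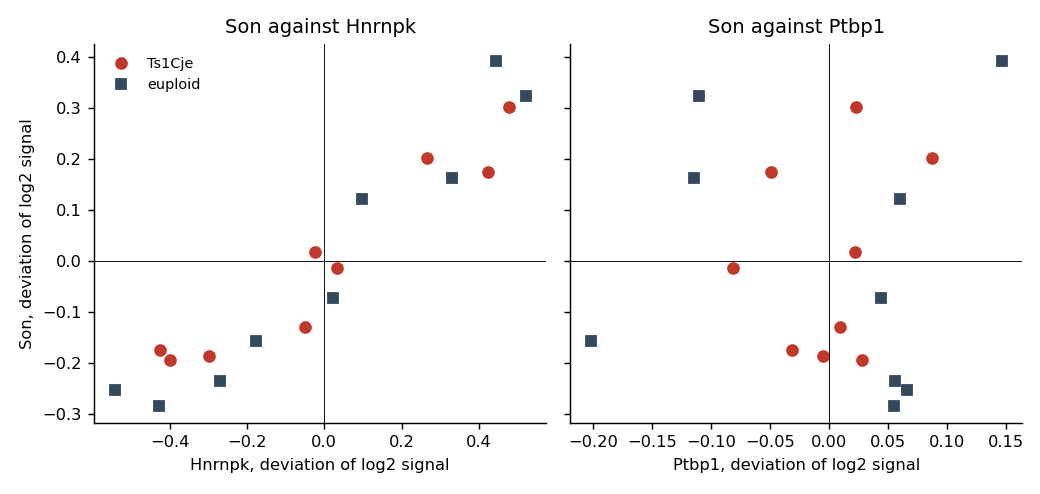
Deviation of the log2 signal of Son from the mean of the mouse's litter and genotype, against the same deviation of Hnrnpk (left) and Ptbp1 (right), with 9 Ts1Cje mice as circles and 9 euploid mice as squares. Each gene is shown by its brightest probe. The points of Son and Hnrnpk follow a line (r = 0.955), and those of Son and this probe of Ptbp1 do not (r = 0.0342).

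Mice can be followed through these genes. In litter 1, Ts1Cje mouse 1 deviated by -0.17 for Son, -0.43 for Hnrnpk and -0.45 for Hnrnpa2b1, while its littermate Ts1Cje mouse 2 deviated by 0.30, 0.48 and 0.45. In litter 3, euploid mouse 9 deviated by 0.39, 0.44 and 0.54, and its Son signal reached that of its Ts1Cje littermates. When the signal of Hnrnpk was added to the fit with litter as a block, an alternative chosen after the data were seen, the log2 fold change of Son was 0.41. Hnrnpk was taken because it followed Son within these groups, so the smaller error of that fit comes from the choice and is no support for the call of Son.

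The difference between genotypes was compared among litters for each member. By the limma test of genotype by litter, 0 of the 26 members passed after adjustment (background 0.0420%), and 4 had an unadjusted p under 0.05 (background 6.27%). These were Hnrnpa2b1, Hnrnpk, Son and Srsf9. Hnrnpa2b1 had log2 fold changes of -0.20, 0.95 and 0.03 in litters 1, 2 and 3 (unadjusted p = 0.0249). Hnrnpk had -0.14, 0.91 and -0.02 (unadjusted p = 0.0392). Without litter 2 the log2 fold change was -0.08 for each gene. In litter 2, Hnrnpk was 10.57, 10.20 and 11.02 in Ts1Cje mice, against 9.71, 10.21 and 9.15 in euploid mice. Of these euploid mice, 5 and 6 are those whose arrays are labelled cerebellum. The arrays of euploid mice 4 and 6 had the lowest SDs of all log2 signals among the arrays, 1.46 and 1.48. The part of either in the differences of litter 2 was not tested.

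Genes of related function were counted from lists. Of the spliceosome core, small nuclear ribonucleoproteins and their partners, 26 of 32 genes were tested, 0 passed limma between genotypes and 0 had an unadjusted p under 0.05, with a median log2 fold change of -0.02. The smallest p belonged to Snrpb (-0.09), Sf3b5 (-0.08) and Prpf8 (-0.07). Among litters, 12 of the 26 passed (25.7% of all genes did), and all 12 were higher in litter 3 than in litter 1 (17.4% of all genes), for example Snrpf (0.33), Snrpd3 (0.28) and Sf3b5 (0.28). Of the SR protein kinases, 7 of 12 were tested and 1 passed between genotypes, Dyrk1a, which lies in the three-copy segment. Dyrk1a averaged 7.56 in Ts1Cje and 7.13 in euploid mice, a log2 fold change of 0.44 (SE 0.07, adjusted p = 0.00232). The kinases next in p, Srpk1 and Clk4, had -0.10 and -0.07, and the median of the 7 was -0.0015. Among litters 1 of the 7 kinases passed, where 25.7% of all genes did. This was Clk1, with a difference of 0.66 between litter 3 and litter 1.

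Of nuclear speckle and exon junction proteins, 10 of 15 were tested and 0 passed limma between genotypes, with a median log2 fold change of -0.0076. At an unadjusted p under 0.05, 1 passed, Thrap3 (0.18, SE 0.08), followed by Bclaf1 (0.10) and Rbm8a (-0.16). Bclaf1 was the 1 gene of the 10 that passed among litters, where 25.7% of all genes did, at -0.24 in litter 3 against litter 1. Of other splicing regulators of neurons, 19 of 26 were tested, 0 passed between genotypes and 0 had an unadjusted p under 0.05, with a median of 0.03 and the smallest p for Khdrbs2 (-0.07), Celf4 (0.19) and Rbfox3 (0.11). Among litters 3 of the 19 passed, a smaller share than the 25.7% of all genes. Elavl1, the ubiquitous HuR, was higher in litter 3 than in litter 1 by 0.51 (SE 0.09). The neuronal genes Elavl2 and Elavl3 were lower, with differences of -0.36 each. Of genes whose splicing needs SON in human cells, 7 of 14 were tested and 0 passed between genotypes, with a median of 0.0068. Their smallest p belonged to Idh2 (0.31, unadjusted p = 0.0157), Flna (-0.12) and Tubg1 (0.06). Among litters 4 of the 7 passed, each higher in litter 3 than in litter 1, where 17.4% of all genes passed in this direction. The probes of the array measure transcript levels near their target and not splicing.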

How the data were processed

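RNA of the dissected layer of 9 Ts1Cje and 9 euploid mice was amplified, labelled and hybridized to Illumina Mouse-6 arrays by the authors. Bead averages were scaled by the authors to a common mean and deposited as log2 signals, which were used unchanged and average 6.69 on each array. Detection p-values were not used here. Symbols came from the array's annotation and were updated through Entrez identifiers, which matched for all 95 member probes; positions are those of RefSeq on GRCm38.p6.

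The 11305 probes of highest mean, as many as the genes the study counted as expressed, were tested with limma 3.58.1 in R 4.3.3 (lmFit, eBayes), two-sided, with Benjamini-Hochberg adjustment over these probes and a threshold of 0.05. Genotype was fitted without litter, litter with genotype, and their interaction with both. Of several tested probes of a gene, the brightest stood for it. The fits were tested on simulated data. The genes named are Son, Scaf4, the 8 other members of smallest p in the genotype and litter tests, and the 4 whose probes differed most in either. In each list, the 3 of smallest p between genotypes were named, and further genes of a list that passed among litters were added after their values were seen. The members and lists were chosen with earlier results of these data known. Alternatives were quantile normalization, median scaling, no filter, a filter at 8000 or at 15000 probes, a block for litter (alone, and with Hnrnpk as a covariate, added after the data were seen), the methods' t-test (Student) before log2, a litter test without genotype, the mean over a gene's probes, and leaving out each litter, each mouse or the 2 arrays labelled cerebellum. The number of arrays limits the precision. Figures were drawn with matplotlib in Python.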

Additional observations from a re-analysis of the deposited data

Results flagged for a closer look

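Over the 26 members tested and Scaf4, 54 groups of 9 mice were searched for a mouse apart from the others of its genotype, and 3 were found, where chance gives about 1 in 20 groups. The first was for Hnrnpul1, which encodes an hnRNP U-like protein. Ts1Cje mouse 1 of litter 1 lay at 7.22, against 7.47 to 7.62 in other Ts1Cje and 7.20 to 7.81 in euploid mice. The same mouse was lowest for Srsf10, at 7.48, against 7.66 to 7.82 in the other Ts1Cje mice. For Srsf3, an SR protein that also acts in RNA export, Ts1Cje mouse 4 of litter 2 lay at 9.81, against 9.24 to 9.50 in the other Ts1Cje mice. No member passed the adjusted test of genotype by litter.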

How the results depend on the processing

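Son passed the adjusted threshold after quantile normalization (adjusted p = 0.0469) and with litter as a block (0.0403), each of which brought the members past the threshold between genotypes to 1. It did not pass by the methods' t-test (0.251), after median scaling (0.0791), with no filter (0.150) or 15000 probes (0.0646), with the mean over probes (0.0584), without the arrays labelled cerebellum (0.179) or without litter 1 (0.0835), litter 2 (0.949) or litter 3 (0.263). With the block and Hnrnpk as a covariate its adjusted p was 0.00014 and the members past the threshold numbered 1, but Hnrnpk was chosen from these data for its correlation with Son, so this value is no support for the call. Leaving out 1 mouse at a time, its adjusted p lay between 0.0181 and 0.155 and the members that passed numbered 0 to 1. Son could not be tested among the 8000 brightest probes, and its log2 fold change was positive under every alternative that gave one. Scaf4 (Sfrs15) did not pass without litter 1 (0.696), litter 2 (0.117) or litter 3 (0.0669), and lay between 0.00278 and 0.0303 when 1 mouse was left out. The members that passed among litters numbered 6 to 12 with 1 mouse left out, 13 after quantile normalization and 8 after median scaling. Ptbp2, Ptbp1, Hnrnpc, Srsf9, Hnrnpm and U2af2 passed under each alternative to the litter test that was run, whereas Hnrnpa1 and Srsf1 did not pass without euploid mouse 7, and Hnrnpa1 also not without Ts1Cje mouse 8 or 9.

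Some log2 fold changes that passed no test changed sign: without litter 2, Hnrnpk (-0.0768) and Hnrnpa2b1 (-0.0813), without litter 3, Srsf2 (0.0121), and with the mean over a gene's tested probes, Srsf10 (0.0304) and Hnrnpab (0.0348). With 1 mouse left out, the log2 fold change lay between 0.14 (without Ts1Cje mouse 6) and 0.37 (without Ts1Cje mouse 1) for Hnrnpk and between 0.15 and 0.40 for Hnrnpa2b1 (without the same mice), and the median of the two-copy members lay between -0.05 and 0.02. The cause was not tested. The number of members past the adjusted test of genotype by litter was 0 under every alternative run. Same-numbered mice of the genotypes share no animal, and the labels give no replicate numbers. No paired analysis was possible because the replicate numbers only follow the order of the arrays; the litter block stands in its place. In dim probes a change may not be visible, which concerns the 9 members not tested and 2 of the 3 Son probes.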
